A study of Mus musculus with 2 samples.

Results

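The semaphorin signalling family was described here as 31 genes, chosen by name: 20 semaphorins of classes 3 to 7, 9 plexins and 2 neuropilins. All 31 were matched by Ensembl identifier among the 43346 mouse genes of the deposited gene tables. The tissue was neural tube dissected from healthy mouse embryos of strain B6NCrl at embryonic day 12.5, with both sexes pooled. Total RNA-seq was run on 2 libraries that formed 1 group, replicate 1 from a pool of 120 embryos and replicate 2 from a pool of 88. Each library started from 10 ng of RNA longer than 200 nucleotides, with spike-in controls added. No treatment, mutant or other stage was included, so the comparisons below are between genes within the tissue and between the libraries.

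Semaphorins are secreted or membrane-bound proteins that share a large folded domain, and they are best known as guidance cues that repel or attract growing axons, migrating neurons and blood vessels. Plexins are their signalling receptors, with a cytoplasmic part that acts on small GTPases. Most class 3 semaphorins, which are secreted, also need a neuropilin, a co-receptor that binds the ligand and passes no signal without a plexin, whereas classes 4 to 7 are mostly membrane proteins that bind plexins directly. In the neural tube these genes are known for confining motor and sensory axons to their paths, for neural crest migration and for closure of the tube.

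Depth was 32612423 expected counts (reads assigned to genes by the authors' quantification) in replicate 1 and 34555002 in replicate 2. The 31 genes held 63614 of these counts in replicate 1 and 71525 in replicate 2, which was 0.201% and 0.213% of the counts on mouse genes. Levels are given as TPM (a share of all transcripts, corrected for gene length and library depth), with replicate 1 before replicate 2, and errors are the SD of the 2 libraries. With 1 group of 2 libraries no group test was possible. A gene was called detected where each library held at least 1 TPM. The library counts differed beyond counting noise (chi-square per degree of freedom 7.35 over 17627 genes), so the libraries were not copies of each other. In bulk tissue, fewer cells that express a gene and less RNA per cell cannot be told apart.

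Of the 31 genes, 29 were detected, against 62.1% of all protein-coding genes. Those below 1 TPM were Sema7a, the membrane-anchored class 7 semaphorin, at 0.850 and 0.680 TPM, and Plxnb3 at 0.480 and 0.310 TPM. Both had few counts, 54 and 45 for Sema7a and 44 and 37 for Plxnb3, so they were measured above 0 but with wide counting error. In both libraries 22 genes lay above the median protein-coding gene, which stood at 5.50 and 5.66 TPM. A level of 10 TPM in both libraries was reached by 20 genes, 12 of the 20 semaphorins and 8 of the 11 receptors. The share of all protein-coding genes at 10 TPM was not taken, so this count describes the members only. From the lowest to the highest, the means ran from 0.395 TPM for Plxnb3 to 95.8 ± 0.269 TPM (SD, n = 2) for Plxnb2. Of the 30 neighbouring pairs in that order, 13 had library ranges that overlapped, so the ranges did not resolve the order within those pairs. Ranges overlapped from Sema6a at 31.5 TPM through Sema4c, Plxnb1 and Sema3c to Plxna2 at 27.4 TPM. The same held from Sema4a at 11.9 TPM through Sema4f and Sema6b to Plxna4 at 10.3 TPM. Within a library some of these pairs kept their order, such as Plxnb1 over Sema3c (27.5 over 26.2 and 32.0 over 29.9 TPM). Others changed it, such as Sema6a and Sema4c (31.2 and 31.5, then 31.8 and 29.3 TPM).

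**Figure D1:**
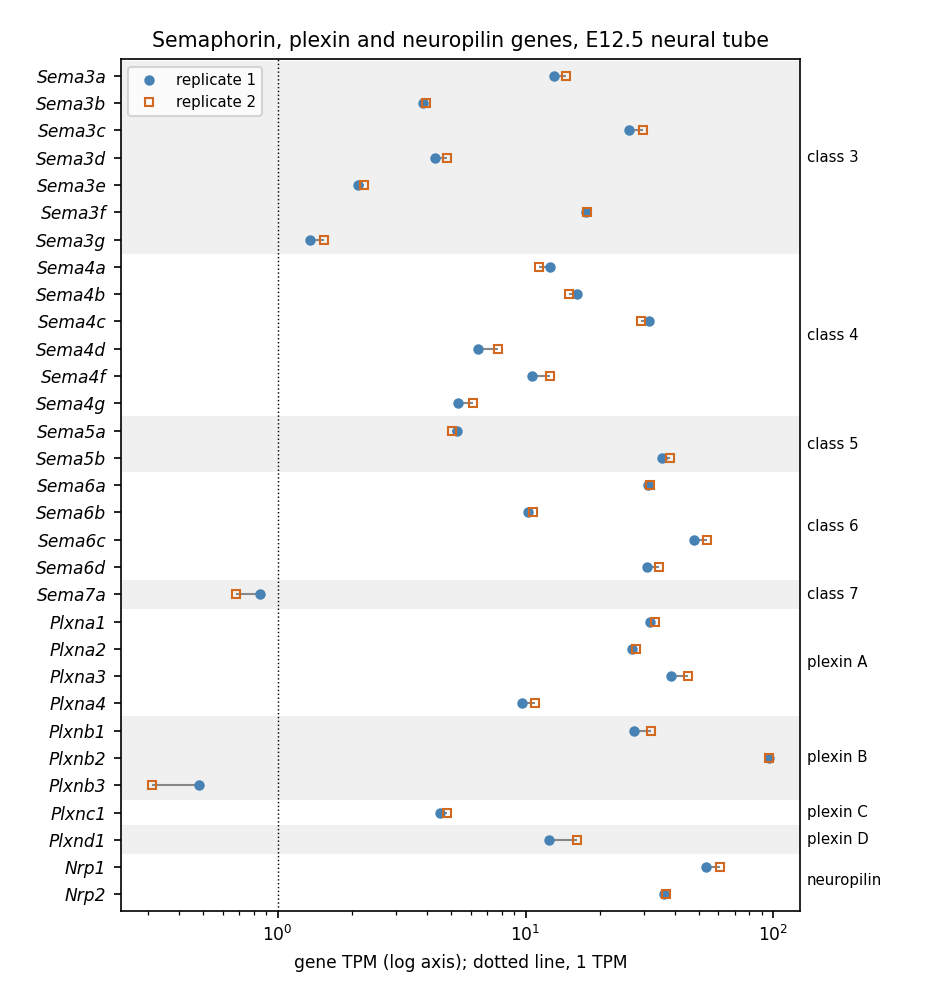
Gene TPM (log axis) of the 31 genes in replicate 1 (filled circles) and replicate 2 (open squares), grouped by semaphorin class, plexin subfamily and neuropilin, with a dotted line at the detection threshold of 1 TPM. Plxnb2 lies furthest right at 95.7 and 96.0 TPM, and Sema7a and Plxnb3 alone lie left of the line.

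The class 3 semaphorins, the secreted ligands of neuropilins, fell into 3 genes above 10 TPM and 4 below 5 TPM. Sema3c, known as a cue for neural crest and for cardiac outflow development, was the highest at 26.2 and 29.9 TPM. Sema3f, a ligand of neuropilin-2 that repels sympathetic, sensory and motor axons, stood at 17.5 and 17.7 TPM. Sema3a, the classic repellent of sensory and motor axons through neuropilin-1, was measured at 13.0 and 14.5 TPM. These 3 were at similar levels in both libraries, and their ranges did not overlap with each other. The remaining class 3 genes were Sema3d at 4.32 and 4.83 TPM, Sema3b at 3.86 and 3.98 TPM, Sema3e at 2.11 and 2.23 TPM and Sema3g at 1.35 and 1.54 TPM. Sema3e is the exception of the class in signalling through plexin D1 without a neuropilin. The median class 3 gene was at 4.58 ± 0.361 TPM (SD, n = 2), and the class held 22.2% ± 0.476 of semaphorin TPM. Sema3a, Sema3c, Sema3d and Sema3e all lie on chromosome 5 (GRCm38), between chr5:12383385-12588948 for Sema3d and chr5:17574281-17730268 for Sema3c, and Sema3b and Sema3f lie near each other on chromosome 9, at chr9:107597674-107609229 and chr9:107681500-107710475. The chromosome 5 genes ranged from a mean of 2.17 TPM for Sema3e to 28.0 TPM for Sema3c.

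All 6 class 4 semaphorins, which are membrane proteins, were detected, with a median of 11.8 ± 0.216 TPM and 25.6% ± 1.17 of semaphorin TPM. Sema4c, a ligand of plexin B2, led the class at 31.5 and 29.3 TPM. Sema4b followed at 16.2 and 15.0 TPM, Sema4a at 12.6 and 11.3 TPM and Sema4f at 10.6 and 12.6 TPM. The lowest were Sema4d, the ligand of plexin B1 and long studied in lymphocytes, at 6.43 and 7.75 TPM, and Sema4g at 5.34 and 6.12 TPM. Sema4a, Sema4b and Sema4c were higher in replicate 1 and the other 3 in replicate 2, so the class as a whole did not shift with the library.

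The class 5 genes, whose proteins carry thrombospondin repeats, were far apart. Sema5b was measured at 35.7 and 38.2 TPM and Sema5a at 5.29 and 5.03 TPM. Class 6, the transmembrane semaphorins that bind the A plexins, had the highest median of the classes with more than 1 gene at 32.1 ± 1.49 TPM and 38.9% ± 0.770 of semaphorin TPM. Sema6c stood at 47.9 and 53.8 TPM, the highest semaphorin by gene TPM. Sema6d stood at 30.9 and 34.5 TPM and Sema6a, known for the boundary caps that hold motor neuron cell bodies inside the tube, at 31.2 and 31.8 TPM. Sema6b was lower, at 10.2 and 10.7 TPM. Counting only transcripts annotated as protein-coding, the class 6 share was 32.6% ± 0.989, the class 4 share 30.7% ± 1.77, and Sema4c at 29.8 and 28.3 TPM was the highest semaphorin by mean.

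Among the plexins, the B subfamily held both extremes. Plxnb2, known to be needed for neural tube closure and for cerebellar granule cells, was measured at 95.7 and 96.0 TPM and was higher than 92.0% and 91.8% of protein-coding genes. Plxnb1, the receptor of Sema4d, was at 27.5 and 32.0 TPM, and Plxnb3 was not detected by the threshold. The A plexins, which pair with neuropilins or bind class 6 semaphorins, were led by Plxna3 at 38.6 and 45.1 TPM. Plxna1 stood at 31.9 and 33.2 TPM and Plxna2 at 27.0 and 27.8 TPM. Plxna4, a receptor of Sema3a and Sema6a in sensory neurons, was the lowest of the 4 at 9.67 and 10.9 TPM. Plxnd1, best known in endothelial cells as the receptor of Sema3e, was at 12.4 and 16.1 TPM, and Plxnc1, the receptor of Sema7a, at 4.53 and 4.84 TPM. By gene TPM the B plexins held 49.0% ± 1.22 and the A plexins 43.6% ± 0.488 of plexin TPM, an order that depended on Plxnb2: by protein-coding transcripts the A plexins held 48.0% ± 1.11 and the B plexins 41.9% ± 0.262.

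Both neuropilins were well above most semaphorins. Nrp1, the co-receptor of Sema3a and also of VEGF in endothelial cells, was measured at 53.7 and 61.1 TPM, and Nrp2, the co-receptor of Sema3f, at 36.1 and 36.8 TPM. The order Nrp1 above Nrp2 held in each library without overlap. Nrp1 lies at chr8:128358604-128503363 and Nrp2 at chr1:62703285-62818695.

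On the log2(TPM + 1) scale, the median receptor gene (plexins and neuropilins, n = 11 genes) lay above the median semaphorin (n = 20 genes) by 1.18 in replicate 1 and 1.35 in replicate 2, a mean of 1.27 ± 0.12 (SD, n = 2). The middle 50% of each set overlapped, from 12.3 to 39.2 TPM for receptors and from 5.01 to 28.6 TPM for semaphorins. Against the plexins alone, whose median was 27.4 ± 0.559 TPM, class 3 lay at -2.35 ± 0.07 and class 4 at -1.16 in both libraries. The sizes depended on the summary: with means in place of medians the receptor minus semaphorin difference was 0.85, class 3 lay at -1.18 and class 4 at -0.45, and in CPM (counts scaled to the library total, not corrected for length) the first was 2.13 and class 4 lay at -2.07. Class 6 lay at 0.22 ± 0.04, but its direction was not stable: it was -0.15 with protein-coding transcripts only and -0.28 in CPM. These differences were larger than the SD between the libraries, but that SD says nothing of the spread between genes, and the quartile ranges overlapped in each of the 4 comparisons.

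For 16 ligand and receptor pairs known from the field, the ligand lay below its receptor in 9 in both libraries. Differences are log2(TPM + 1) of the ligand minus that of the receptor (SD, n = 2). On this scale the gap was widest for Sema3g and Nrp2, at -3.94 ± 0.06. Sema3e and Plxnd1 followed at -2.26 ± 0.21 and Sema3a and Nrp1 at -1.99 ± 0.03. The added 1, used for CPM too, narrows gaps that involve low values. Among these were Sema7a and Plxnc1, at 0.765 and 4.69 TPM and a difference of -1.69 ± 0.15. Sema3f was below both of its receptors, at -1.01 ± 0.01 against Nrp2 and -1.20 ± 0.15 against Plxna3. Sema4c lay at -1.62 ± 0.07 against Plxnb2 and Sema4d at -1.93 ± 0.02 against Plxnb1. In 5 pairs the ligand lay above in both libraries. Sema5a over Plxnb3 came to 2.15 ± 0.08, where the receptor was not detected by the threshold and the added 1 narrows the gap most. The others were Sema6a over Plxna4 at 1.53 ± 0.09, Sema6c over Plxna1 at 0.62 ± 0.08, Sema3a over Plxna4 at 0.38 ± 0.01 and Sema6a over Plxna2 at 0.19 ± 0.01. The Sema6d and Plxna1 pair, at 0.00 ± 0.07, and the Sema6b and Plxna4 pair, at 0.02 ± 0.07, changed sign between the libraries. With protein-coding transcripts only, the ligand lay below in 12 of the 16 pairs, now including Sema6a with Plxna2, Sema6c with Plxna1 and Sema6d with Plxna1, while Sema6a over Plxna4 came to 0.48 ± 0.03. In CPM the ligand lay below in 15 of 16, and Sema6a with Plxna4 was at -0.14 ± 0.06 and Sema3a with Plxna4 at -0.82 ± 0.02. These are RNA levels of a whole tissue and do not show which cells held ligand or receptor.

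**Figure D2:**
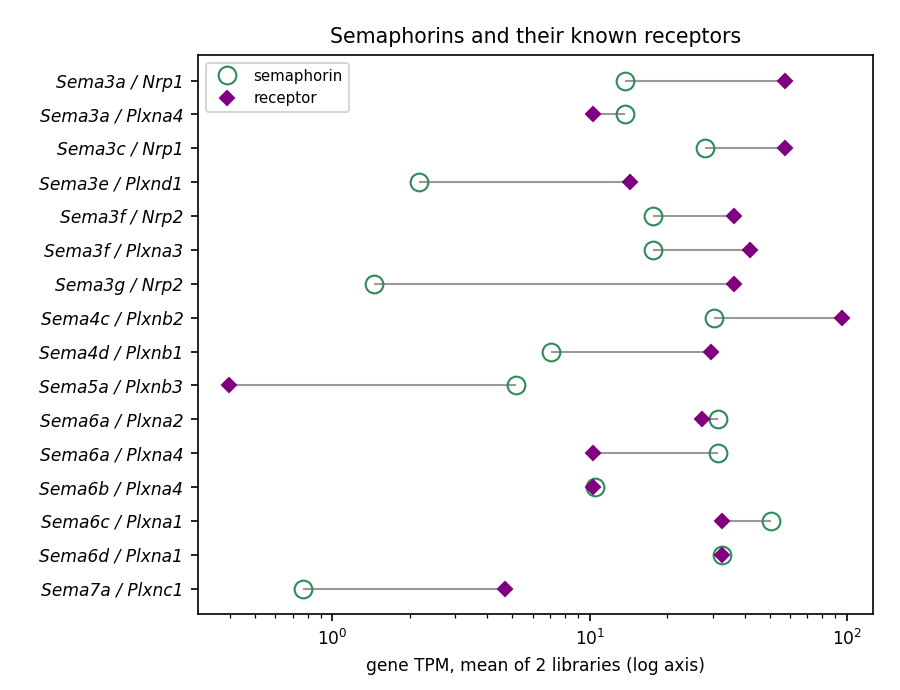
Mean gene TPM (log axis, 2 libraries) of a semaphorin (open circle) and a known receptor (filled diamond) in 16 pairs, joined by a line. The circle lies left of the diamond in 9 pairs in both libraries, and the longest line is Sema3g to Nrp2.

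Gene TPM of this family did not stand for protein-coding transcripts alone. In the median detected member 91.4% and 88.9% of the TPM lay in transcripts annotated as protein-coding, against 98.3% and 98.4% in the median detected protein-coding gene. The lowest shares were 44.1% in replicate 1, for Sema6a, and 49.6% in replicate 2, for Sema6c. Shares under 60% were found in 5 and 4 of the 29 detected members. Over all detected protein-coding genes they were found in 12.6% and 12.1%, so such low shares were not particular to the family. Plxnb2 was the largest case by level. Its coding transcript Plxnb2-202 held 47.1 and 53.5 TPM from 5881 and 6928 counts, and the processed transcript Plxnb2-205, a model of 841 nucleotides, held 42.1 and 39.7 TPM from 622 and 608 counts. The short model thus took 44.0% and 41.3% of the gene's TPM on few of its reads. Summed over coding transcripts, Plxnb2 was at 47.9 and 53.5 TPM, Sema6c at 24.3 and 26.7 TPM, Plxna3 at 20.2 and 23.0 TPM and Sema6a at 13.7 and 15.9 TPM. With this sum Nrp1, which has a single transcript in the tables, was the highest member.

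**Figure D3:**
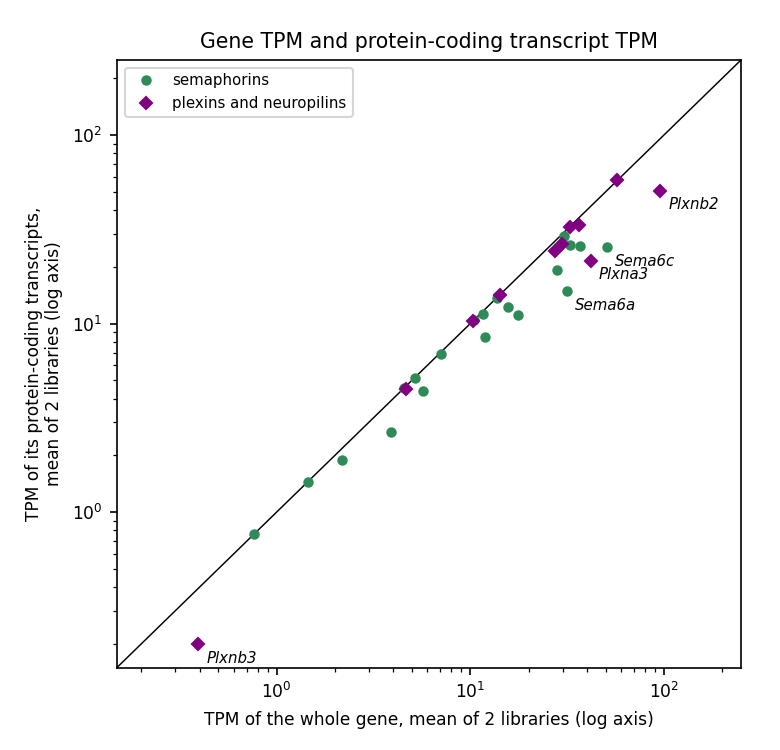
Mean TPM of protein-coding transcripts against mean TPM of the whole gene (log axes, 2 libraries) for semaphorins (circles) and for plexins and neuropilins (diamonds); points on the line have all TPM in protein-coding transcripts. The named genes, Plxnb2, Sema6c, Plxna3, Sema6a and the barely measured Plxnb3, lie furthest below the line.

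Nrp2 makes receptors with different ends, and the transcript table separated them. Its protein-coding models differ in coding sequence at 3 places, and the sequences that differ are shown because they decide which receptor is made. The last coding exon is either distal (chr1:62815333-62815637, plus strand), the end known as neuropilin-2a, or proximal (chr1:62795709-62795989), known as neuropilin-2b. They encode different stretches that run across the membrane to the stop codon, which is in capitals. Of the 305 bases of the distal exon the last 300 are printed, from chr1:62815338-62815637.
Nrp2 distal last coding exon: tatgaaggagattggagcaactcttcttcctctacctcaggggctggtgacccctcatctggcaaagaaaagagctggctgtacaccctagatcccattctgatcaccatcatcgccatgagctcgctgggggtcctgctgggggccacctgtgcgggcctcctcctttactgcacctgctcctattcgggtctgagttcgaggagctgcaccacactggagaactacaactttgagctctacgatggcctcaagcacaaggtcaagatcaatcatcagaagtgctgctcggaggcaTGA
Nrp2 proximal last coding exon: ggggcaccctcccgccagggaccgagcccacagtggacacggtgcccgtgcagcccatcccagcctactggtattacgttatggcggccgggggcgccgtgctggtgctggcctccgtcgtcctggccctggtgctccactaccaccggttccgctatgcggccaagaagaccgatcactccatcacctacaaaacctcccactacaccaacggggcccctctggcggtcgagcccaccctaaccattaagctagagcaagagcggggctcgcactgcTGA
The exon at chr1:62786281-62786316 has a short and a long end, and the 15 bases of the long end, in capitals, add 5 codons.
Nrp2 exon with the long end: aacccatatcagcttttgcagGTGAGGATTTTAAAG
A cassette exon of 51 bases (chr1:62812534-62812584), found in distal forms, adds 17 codons and is in capitals throughout.
Nrp2 cassette exon: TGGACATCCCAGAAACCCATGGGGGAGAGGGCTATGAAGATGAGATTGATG

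Distal forms held 58.1% and 56.6% of the TPM of protein-coding Nrp2 transcripts, and proximal forms 41.9% and 43.4%, so both ends were present at similar amounts in both libraries. By whole-transcript estimates, the 5-codon addition was split unevenly between them. It was in 81.5% and 81.2% of proximal forms but in 12.1% and 18.1% of distal forms. The gap was larger than the SD of 0.198 percentage points for proximal and 4.21 for distal forms. The proximal models, Nrp2-201 with the addition and Nrp2-205 without, also end at different bases, chr1:62796981 and chr1:62799314. Their lengths are 4216 and 6534 nucleotides, so the proximal share of the addition was not separated from where the transcript ends. The cassette exon was in 20.1% and 17.4% of the distal forms. As shares of all Nrp2 TPM, the distal Nrp2-204 without addition held 37.2% and 33.9%, the proximal Nrp2-201 with addition 31.1% and 32.4%, and the distal Nrp2-202 with the cassette 9.36% and 8.59%. The authors' interval of Nrp2-203, a distal form with the addition, was wide, from 0.0332 to 7.29 TPM in replicate 1 and from 0.819 to 7.47 TPM in replicate 2. The distal share of the addition is therefore weakly measured.

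In 3 of the 21 members with at least 5 TPM and more than 1 transcript, the leading transcript was not the same in the 2 libraries, against 7.39% of all such genes. They were Sema4c, Sema6d and Sema6a. Because these genes were picked for that difference, the intervals of their transcripts given here and below are not separate support for it. The share of all transcripts whose intervals did not overlap was not taken. In Sema6a, coding Sema6a-201 led in replicate 1 with 27.0% of gene TPM, against 20.9% in replicate 2, and retained-intron Sema6a-209 led in replicate 2 with 26.8%, against 24.1% in replicate 1. The authors' intervals for both transcripts overlapped between the libraries. Among members whose leading transcript held at least 60% in both libraries, 0 changed. That 0 followed from the filter, because the leading transcripts of these 3 genes all held less.

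Sema6d is known to be spliced into forms that differ between the semaphorin domain and the membrane. The transcript models have 2 cassette exons there, shown because their estimated shares differed between the libraries. The first (chr2:124660705-124660761, plus strand) has 57 bases and 19 codons, and the second (chr2:124662204-124662371) 168 bases and 56 codons. Both are in frame and are printed in capitals throughout.
Sema6d first cassette exon: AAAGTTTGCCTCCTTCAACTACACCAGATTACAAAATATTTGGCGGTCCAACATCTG
Sema6d second cassette exon: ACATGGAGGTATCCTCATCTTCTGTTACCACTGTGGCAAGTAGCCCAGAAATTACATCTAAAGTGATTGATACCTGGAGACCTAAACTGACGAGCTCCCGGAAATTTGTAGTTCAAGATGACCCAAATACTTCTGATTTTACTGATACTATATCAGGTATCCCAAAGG
Among protein-coding transcripts that hold the preceding exon, the first cassette was in 41.9% of TPM in replicate 1 and 60.7% in replicate 2, and the second in 40.7% and 50.8%. Transcripts with both held 25.0% and 40.7%, and those with neither 42.4% and 29.2%. The form with both, Sema6d-206, had 728 and 1472 expected counts, and the authors' TPM intervals for it, 3.51 to 8.23 and 8.80 to 13.9, did not overlap. The form with neither that led in replicate 1, Sema6d-208, was close in the libraries at 9.06 and 8.32 TPM. Its intervals, and those of Sema6d-203 and Sema6d-204, overlapped between the libraries. Sema6d-208 also starts upstream of Sema6d-206, at chr2:124089969 against chr2:124610573. The most upstream start held 37.9% and 29.1% of protein-coding Sema6d TPM, so exon use was not separated from start use.

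Sema4c has 2 groups of starts on the minus strand of chromosome 1, and all 3 of its leading models have the same coding length of 834 codons. Upstream and downstream transcripts differ in where they start, and the 250 bases before each start are shown, from RefSeq (GRCm38.p6), with the motif GGGCGG or its reverse complement CCGCCC in capitals.
Sema4c upstream promoter: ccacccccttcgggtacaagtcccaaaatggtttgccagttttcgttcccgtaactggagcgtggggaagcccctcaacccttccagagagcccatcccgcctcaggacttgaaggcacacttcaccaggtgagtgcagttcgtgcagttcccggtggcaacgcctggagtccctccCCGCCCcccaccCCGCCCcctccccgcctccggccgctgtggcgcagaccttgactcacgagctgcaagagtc
Sema4c downstream promoter: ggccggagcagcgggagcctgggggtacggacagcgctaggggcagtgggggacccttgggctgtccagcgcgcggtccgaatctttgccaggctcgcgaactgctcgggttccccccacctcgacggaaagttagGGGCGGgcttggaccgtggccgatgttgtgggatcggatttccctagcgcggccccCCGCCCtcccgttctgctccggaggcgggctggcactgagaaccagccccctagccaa
They lie at chr1:36558382-36558631 and chr1:36557558-36557807, and the starts are 824 bases apart. The downstream start of RefSeq was that of Sema4c-208 to the base, and the upstream start lay 32 bases from that of Sema4c-201 and Sema4c-203. The motif occurs at 2 places in each, and CG dinucleotides number 15 in the upstream and 23 in the downstream sequence. Transcripts from the upstream start held 44.4% of protein-coding Sema4c TPM in replicate 1 and 70.6% in replicate 2. The authors' intervals of the upstream models overlapped between the libraries, at 5.23 to 9.97 and 8.46 to 14.4 TPM for Sema4c-201 and 3.16 to 8.18 and 5.51 to 10.4 TPM for Sema4c-203. Sema4c-208 alone held 41.5% and 16.0%, or 872 and 330 expected counts, and its own intervals, 8.0 to 14.9 and 2.18 to 6.53, did not overlap. The gene's total stayed at 31.5 and 29.3 TPM. The transcript D430040D24Rik shares 334 exon bases with Sema4c on the opposite strand and was at 1.92 and 1.71 TPM. Its part in the difference between the libraries was not tested. Exon bases of 7 members are shared with another annotated gene, a count not taken over all genes. The longest overlap was 970 bases of Plxna1 with the antisense gene Gm26811, at 0.310 and 0.520 TPM.

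**Figure D4:**
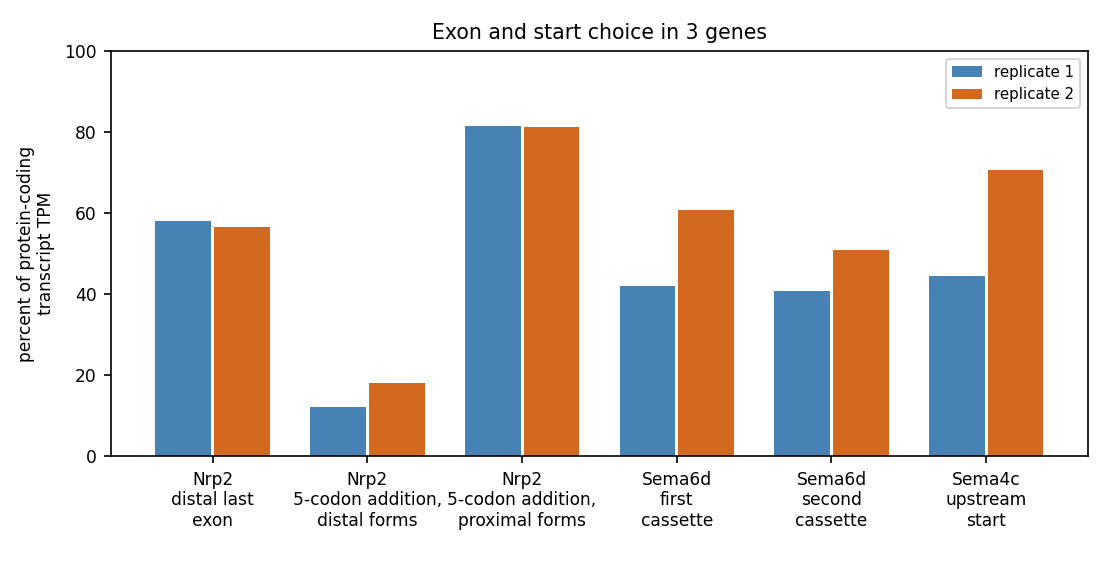
Percent of protein-coding transcript TPM that used each exon or start, in replicate 1 (left bars) and replicate 2 (right bars); the 5-codon addition of Nrp2 is given within distal and within proximal forms. The bars for the Nrp2 distal last exon differ little between libraries (58.1 and 56.6), and those for the addition in distal forms differ more (12.1 and 18.1). The Sema4c upstream start differs most (44.4 and 70.6).

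RefSeq's promoter table, with 250 bases before and 50 after each start, held 37 promoters of 26 of the 31 genes. They were rich in CG: the median held 15 CG dinucleotides, against 7 in all 32851 promoters, and the range ran from 2, in Sema3a and in a Sema4d promoter, to 42 in Sema3c. GGGCGG, searched on both strands and itself holding a CG, was in 73.0% of the members' promoters and 35.7% of all. TATAAA, also searched on both strands, was in 0 of the 37 and in 13.6% of all. A match is a description of the letters and not of binding.

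Between the libraries the members were close. Of the 29 members whose mean reached 1 TPM, 0 differed by more than 1.5-fold. Over all genes of that level, 1.43% were higher and 1.98% lower in replicate 2 by more than this. The count of 0 among 29 is near those shares and does not set the members apart. Among these members the log2 ratio of replicate 2 over replicate 1 (TPM + 1) ran from -0.15 for Sema4a to 0.35 for Plxnd1. In 25 of 29 the value was higher in replicate 2, against 58.5% of all genes, and the median ratio was 0.10 for members and 0.03 for all genes. Scaled by TMM or DESeq2 factors, 21 of 29 were higher, against 50.2% and 50.7% of all genes, and the median ratio was 0.07 for members and 0.00 for all genes. The authors' TPM intervals did not overlap in 5 of 29, against 14.3% of all genes, namely Sema3c, Plxna4, Plxnb1, Plxnd1 and Nrp1, each higher in replicate 2. In 4 members, Sema3b, Sema4a, Sema4d and Nrp1, the deposited TPM lay outside its own interval in both libraries. How often this occurs over all genes was not counted. Plxnd1, with the largest TPM ratio of these members, had 1683 and 2242 counts and a log2 CPM ratio of 0.33 (exact 95% interval 0.24 to 0.42). Sema4d had 523 and 701 counts, with a ratio of 0.34 (0.17 to 0.50) in CPM and 0.24 in TPM. Sema4b was the member furthest the other way in CPM with an interval that excluded 0, at -0.22 (-0.34 to -0.09). These intervals cover counting error only.

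**Figure D5:**
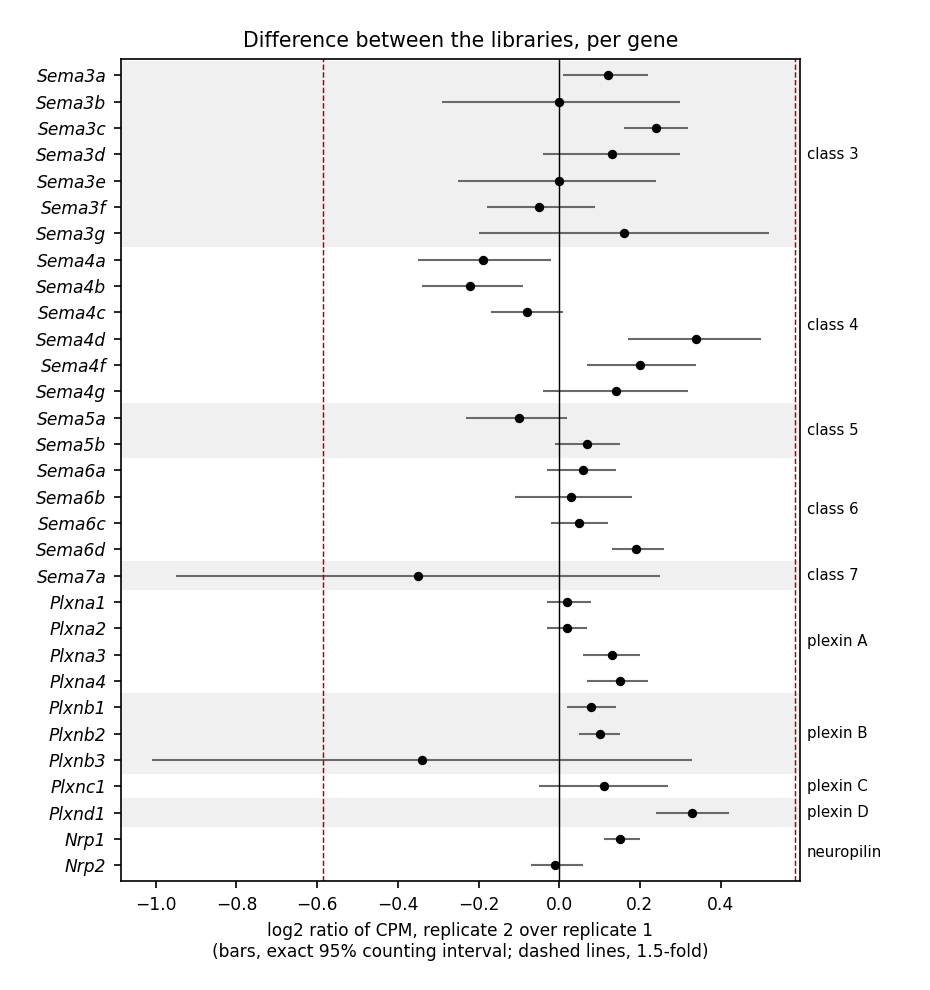
Log2 ratio of CPM, replicate 2 over replicate 1, for the 31 genes, with exact 95% counting intervals as bars and dashed lines at 1.5-fold. Plxnd1 (0.33) and Sema4d (0.34) lie furthest right, and the wide bars of Sema7a and Plxnb3 belong to genes with 54 counts or fewer.

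Some lists of genes used as markers of other tissues also differed between the libraries. Whether the listed genes are confined to those tissues, and not also expressed in the tube, was not tested. Among all genes that reached 1 TPM on average, 58.5% were higher in replicate 2, and no list was tested against that share. Counts of 8 of 10 endothelial, 7 of 10 pericyte and meninges and 5 of 8 erythroid genes do not set those lists apart. The summed level of 12 sensory ganglion genes was 401 and 554 TPM, with 12 of 12 higher in replicate 2, led by Prph at 84.2 and 132 TPM. Of 12 muscle and somite genes, led by Actc1 at 131 and 88.0 TPM, the sum was 422 and 305 TPM, and all 11 with a mean of at least 1 TPM were lower in replicate 2. For 10 endothelial genes, led by Egfl7 at 62.8 and 62.0 TPM, the sum was 248 and 258 TPM, with 8 higher in replicate 2. The labelled tissue carried its markers: 12 neuron genes, led by Tubb3 at 1004 and 1030.3 TPM, summed to 4393 and 4811 TPM, with 10 higher in replicate 2. For 12 neural progenitor genes, led by Fabp7 at 1469 and 1537 TPM, the sum was 3169 and 3259 TPM, but 8 of 12 were lower in replicate 2. For 8 motor neuron genes, led by Isl1 at 110.2 and 156 TPM, it was 231 and 270.0 TPM, but 5 of 8 were lower in replicate 2, among them Lhx4 at 18.5 and 10.1 TPM, and the median log2 ratio was -0.25. The other lists were crest and Schwann cell (1562 and 1653 TPM, mostly Fabp7 again, 8 of 9 higher in replicate 2), pericyte and meninges (867 and 891 TPM, led by Col3a1, 7 of 10 higher), sclerotome (322 and 297 TPM, led by Col2a1, 6 of the 6 that reached 1 TPM on average lower), macrophage (104 and 114 TPM, led by C1qb, 10 of 10 higher) and erythroid (9096 and 8851 TPM, led by Hbb-y, 5 of 8 higher). No marker gene was at 0 in either library. Genes used as markers of ganglia, muscle, vessels and blood were thus measured with those of the tube. The part of such tissues in the level of any semaphorin, plexin or neuropilin, or in the differences between the libraries, was not tested.

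Most genes listed from the rest of the pathway were detected too, where 62.1% of all protein-coding genes were. The lists were chosen with earlier results of these data known. All 13 co-receptors were detected, led by the integrin Itgb1 at 130.1 and 145 TPM, the axonal adhesion gene Cntn2 at 67.9 and 86.3 TPM and Ptk7 at 55.8 and 57.1 TPM. L1cam, the adhesion molecule that joins Nrp1 in Sema3a receptors, was at 38.3 and 56.4 TPM and higher in replicate 2. Of 24 cytoplasmic effectors 23 were detected, the exception being Mical2, an actin-oxidising enzyme, at 0.960 and 1.49 TPM. Cfl1, the actin-severing cofilin, was highest at 2284 and 2287 TPM. Dpysl2 and Dpysl3, the collapsin response mediators, followed at 674 and 534 TPM and at 573 and 547 TPM. All 6 proteases that cleave semaphorins or their receptors were detected, with Adam10 at 75.7 and 87.8 TPM, Adam17 at 23.4 and 25.3 TPM and Pcsk7 at 18.1 and 19.2 TPM. Of 5 genes of the VEGF ligand family, which can bind neuropilins, 4 were detected. Vegfb led at 31.2 and 27.9 TPM, Pgf followed at 6.98 and 7.77 TPM and Vegfc at 5.70 and 7.83 TPM, and Vegfd, at 0.590 and 0.670 TPM, was below 1 TPM. Of the pathway genes that reached 1 TPM on average, 0 differed by more than 1.5-fold between the libraries. That is near the shares over all genes of that level, 1.43% higher and 1.98% lower in replicate 2.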

How the data were processed

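Total RNA of 2 neural tube libraries was measured. For each library the authors deposited gene and transcript tables, and the deposited read-me names assembly mm10 and GENCODE M4. Expected counts and TPM are as deposited, per the file headers. The quantification program and the use of strand are not given in the sources used here. The deposited percent is each transcript's share of its gene. The deposited posterior mean TPM and the bounds of the TPM interval were treated as scores whose level is not stated. A later series is named by the submitters as superseding this one and was not used here.

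Names, biotypes, exons and coordinates (1-based) came from GENCODE M21 on GRCm38, matched by identifier, and 184 of 185 member transcripts matched. Members and lists were chosen with earlier results of these data known. Named were all members, of each pathway list the 3 highest and up to 3 below 1 TPM, of each marker list the highest, transcripts with at least 10% of Nrp2, and leading transcripts that differed; the other genes and transcripts were picked after their values were seen. Ratios used log2(TPM + 1). Count ratios have exact binomial 95% intervals, and CPM uses counts on mouse genes. A count of 0 would allow 0.0949 and 0.0895 CPM with a floor of 3 counts. TMM factors came from edgeR 4.0.16 and size factors from DESeq2 1.42.0 in R 4.3.3, and the rest from Python 3.11.15 with scipy 1.17.1. Ratios, fold calls and differences of medians were tested on simulated counts with counting noise only. The libraries differed by more than that, so the simulation gives no error rate for these data. Alternatives were the pseudocount, CPM, posterior means, thresholds, means, scaling, leaving out each replicate, and protein-coding transcripts only. No batch is given in the labels. Both pools carry the same donor identifier, so the spread may be partly technical.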

Additional observations from a re-analysis of the deposited data

How the results depend on the processing

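Leaving out each replicate moved the receptor minus semaphorin difference between 1.18 and 1.35, class 3 minus plexins between -2.40 and -2.31, class 4 between -1.16 and -1.16 and class 6 between 0.19 and 0.24, and left 29 genes detected. The receptor minus semaphorin difference was 2.13 in CPM, 0.85 with means and 1.12 with protein-coding transcripts only, an alternative chosen after seeing the data. Class 3 minus plexins was -2.56 with a pseudocount of 0.1, -2.44 in CPM, -2.10 with posterior means, -1.18 with means and -2.02 with protein-coding transcripts. Class 4 minus plexins was -1.22, -2.07, -1.02, -0.45 and -1.09 in the same order, and -1.21 over genes of at least 1 TPM. Class 6 minus plexins reversed to -0.28 in CPM and -0.15 with protein-coding transcripts, and was 0.16 over genes of at least 1 TPM and 0.69 with means. CPM is not corrected for length, and plexin transcripts are long. At a lower fold limit, 1 member, Plxnd1, differed between the libraries. The changed leading transcripts numbered 4 by posterior mean, with Nrp2 added. They numbered 0 at 60% or more, a filter that removes Sema4c, Sema6d and Sema6a in advance. Detected genes ranged from 24 at 5 TPM to 31 at 1 CPM. No share of all genes is given for these altered limits and settings, so their counts describe the members only. No paired analysis was possible because the libraries form a single group. With 2 libraries, genes under 100 counts and transcripts that share most exons are the least precise.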
